A study of Mus musculus with 10 samples.

Results

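Scavenger receptors are surface or lysosomal proteins that bind modified lipoproteins, microbes, dying cells and worn-out plasma proteins. The 10 genes described here encode members of this family: Msr1, Marco, Colec12, Cd36, Scarb1, Scarb2, Cd68, Mrc1, Cd163 and Stab1. Some, such as Cd68 and Cd163, are widely used as macrophage markers, while others are also made by many other cells. The 10 genes were taken by name, as probe sets whose array annotation gave a single symbol equal to one of these names. That gave 18 probe sets of 22626 on the array, and where a gene had several, the one that was brightest on average was used, so that 10 of 12393 named genes were followed. All 10 genes were measured. RNA came from whole lungs of C57BL/6 males, an inbred laboratory strain, that were 6 to 8 weeks old and for which the labels name no transgene or deletion. The normoxia group held 5 mice, and the intermittent hypoxia group, in which oxygen in the inspired air falls and recovers repeatedly, held 5 others. Each mouse had 1 array, of the Affymetrix Mouse Genome 430A 2.0 type, a chip on which several short probes report 1 transcript as a probe set. Oxygen levels and exposure time are not given in the sources used here.

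In the lung these receptors sit on several cells. Alveolar macrophages, which clear surfactant and inhaled particles, are known for high MARCO and for macrosialin (CD68), and macrophages of the interstitium and around vessels are known for CD163, the mannose receptor MRC1 and stabilin-1. CD36, SCARB1 and COLEC12 are also made outside the macrophage lineage, in endothelial cells, fat, muscle, epithelium or stroma, and SCARB2 is a lysosomal protein of nearly all cells. RNA of whole lung adds up all of these sources, so a larger share of cells of a type and more RNA per cell cannot be told apart in any value given here.

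Values are log2 levels, on which a difference of 1 is a doubling. They ran from 3.99 to 14.94 over all probe sets, with array medians from 7.69 to 7.73, and correlations between pairs of arrays were 0.982 to 0.996. The surfactant gene Sftpc, which marks type 2 cells of the alveolus, stood at 14.50 to 14.72 on all 10 arrays. Normoxia arrays 2 to 4 had a narrower spread of values (SD 1.89 to 1.93) than the remaining 7 (1.99 to 2.05). Each receptor gene that passed is therefore given with and without these 3 arrays, and the genes of the related lists are given without them once, after the lists. The number of arrays limits the precision. Levels of different genes come from different probes, so only changes from the normoxia mean, not levels, were set side by side between genes.

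The receptors changed in both directions. Of the 10 genes, 4 rose in intermittent hypoxia (Cd68, Colec12, Scarb1 and Mrc1), 1 fell (Cd163) and 5 did not pass the test (Msr1, Marco, Cd36, Scarb2 and Stab1), at an adjusted p below 0.05 from limma, a linear model fitted to all probe sets. Over all 12393 genes, 8.93% were called higher and 3.6% lower by the same rule. Without normoxia arrays 2, 3 and 4 together, which left 2 normoxia arrays, 0 of the 10 passed, against 16 of all 22626 probe sets. The groups did not overlap in Cd68 and Scarb1, which were higher on every hypoxia array, and in Cd163, which was lower on every one. Over all genes 5.76% were separated in this way upwards and 2.85% downwards. The median log2 difference of the 10 genes was 0.14, against 0.01 over all genes, and 8 of the 10 differences were above 0, against 53.2% over all genes, though those of Cd36 and Scarb2 turned negative with quantile normalization.

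**Figure D1:**
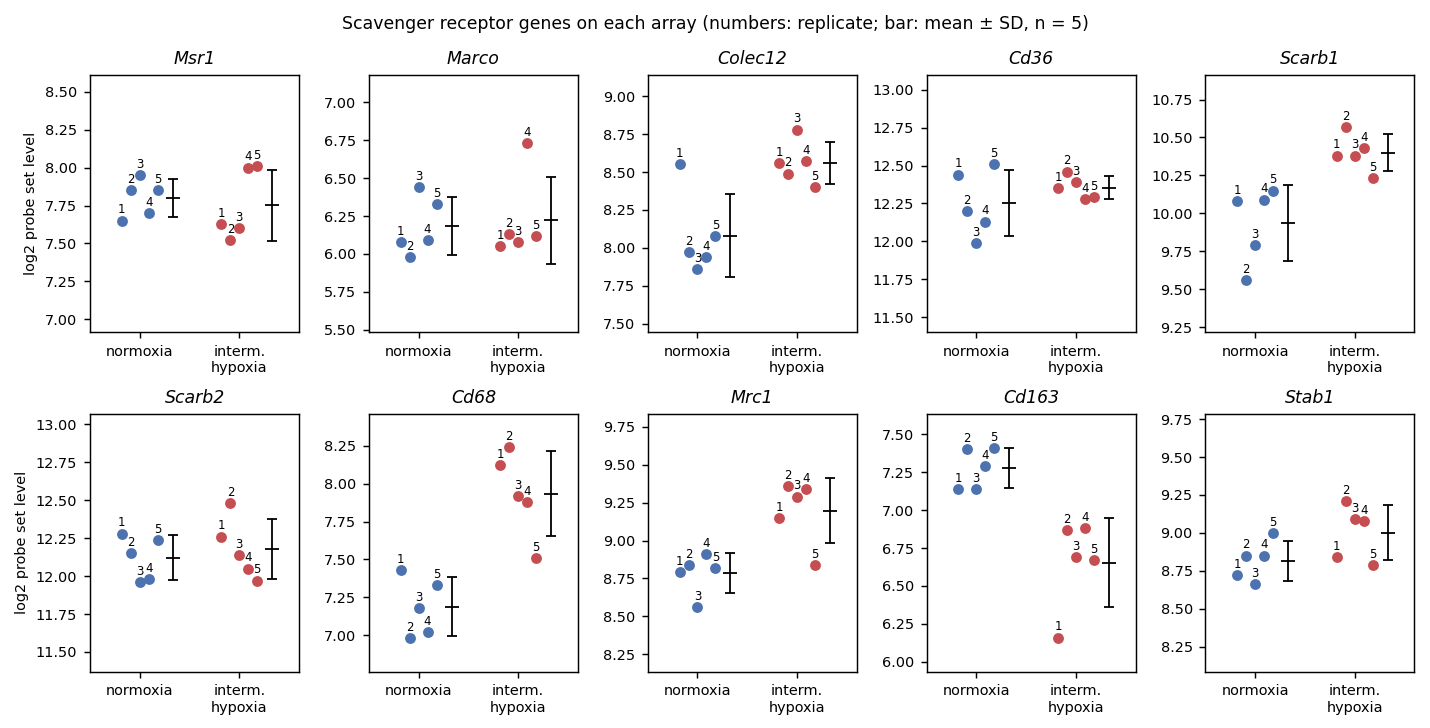
Log2 probe set level (vertical axis, the same span of values in each panel) of the 10 scavenger receptor genes on the 5 normoxia and 5 intermittent hypoxia arrays. Points are arrays with their replicate number and bars are the mean ± SD (n = 5). Cd68 and Scarb1 are higher and Cd163 is lower on all hypoxia arrays, while the groups overlap in the other 7 genes.

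Class A receptors carry a collagen-like stalk and bind polyanions such as modified low-density lipoprotein and bacterial wall components. Colec12, whose product adds a C-type lectin domain to this plan and is made by endothelial and stromal cells, had log2 levels of 8.55, 7.97, 7.86, 7.94 and 8.08 on normoxia arrays 1 to 5. On hypoxia arrays 1 to 5 it had 8.56, 8.49, 8.78, 8.57 and 8.40. Normoxia array 1 lay among the hypoxia arrays, and the other 4 normoxia arrays lay below all of them. Colec12 rose by 0.48 (SE 0.12, limma adjusted p = 0.0248), from 8.08 ± 0.27 to 8.56 ± 0.14 (SD, n = 5), or 1.39-fold with a 95% interval of 1.17 to 1.66. Its call was lost without normoxia array 2, 3 or 4 or hypoxia array 1 or 3 (limma adjusted p 0.0559 to 0.0687). SAM, the permutation method that the series' design text names, gave 0.0522. Without normoxia arrays 2 to 4 together the difference was 0.24 (limma adjusted p = 0.595).

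Marco and Msr1, the class A receptors of macrophages proper, did not pass. Marco, which binds unopsonized particles on alveolar macrophages, had log2 levels of 6.08, 5.98, 6.44, 6.09 and 6.33 in normoxia and 6.05, 6.13, 6.08, 6.73 and 6.12 in intermittent hypoxia. Its only probe set was dim, with a mean of 6.20 over all arrays against array medians of 7.69 to 7.73. Hypoxia array 4 was the highest of all 10, and the other 4 hypoxia arrays lay inside the normoxia range. The difference was 0.04 (SE 0.13), with a 95% interval from a 0.846-fold to a 1.25-fold level (limma adjusted p = 0.859). Msr1, the original macrophage receptor for acetylated lipoprotein, was covered by 4 probe sets, none of which passed. At the probe set with the highest mean it had 7.65, 7.85, 7.95, 7.70 and 7.85 in normoxia and 7.63, 7.52, 7.60, 8.00 and 8.01 in intermittent hypoxia, a difference of -0.05 (SE 0.10, limma adjusted p = 0.789) with a 95% interval from 0.828-fold to 1.13-fold. On this probe set hypoxia arrays 4 and 5 were above every normoxia array and hypoxia arrays 1, 2 and 3 below every one. The other probe sets of Msr1 differed by 0.21, 0.07 and 0.12, and the first of these, with 4 of 5 hypoxia arrays above all normoxia arrays, had a limma adjusted p of 0.112. The probe sets of Msr1 thus disagreed in sign, and which transcript forms each of them reads was not examined here.

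Class B receptors are anchored in the membrane at both ends and carry lipids. Scarb1 encodes SR-BI, the receptor that takes up cholesterol esters from high-density lipoprotein and, in type 2 cells, vitamin E. Its log2 levels were 10.08, 9.56, 9.79, 10.09 and 10.15 on normoxia arrays 1 to 5 and 10.38, 10.57, 10.38, 10.43 and 10.23 on hypoxia arrays 1 to 5. Every hypoxia array was above every normoxia array, and the same held at both of its other probe sets. Scarb1 rose by 0.46 (SE 0.11, limma adjusted p = 0.0212), or 1.38-fold with a 95% interval of 1.17 to 1.62. All 3 probe sets passed, the others with differences of 0.34 (SE 0.09) and 0.40 (SE 0.10). Both of these carry the suffix by which Affymetrix marks probes that may also bind related transcripts. The call was lost without normoxia array 3 (limma adjusted p = 0.0567) or hypoxia array 2 (0.0535) and with quantile normalization, where the difference was 0.31 (limma adjusted p = 0.0556). Without normoxia arrays 2 to 4 together it was 0.28 (limma adjusted p = 0.323).

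Cd36 and Scarb2, the other class B genes, did not pass at any of their probe sets. Cd36 encodes the fatty acid translocase, a receptor for oxidized lipoprotein and long-chain fatty acids that is abundant in capillary endothelium and fat as well as in macrophages. Its log2 levels were 12.44, 12.20, 11.99, 12.13 and 12.51 in normoxia and 12.35, 12.46, 12.39, 12.28 and 12.29 in intermittent hypoxia. The hypoxia arrays lay inside the normoxia range, above normoxia arrays 2, 3 and 4 and below normoxia array 5. The difference was 0.10 (SE 0.09, limma adjusted p = 0.496), with a 95% interval from 0.930-fold to 1.23-fold, and quantile normalization turned it to -0.06. The other probe sets of Cd36 differed by 0.36 (SE 0.14, limma adjusted p = 0.0912) and 0.15 (SE 0.11). Among adipocyte markers 3 of 10 fell and 0 rose (Retn by -0.35, Plin4 by -0.41 and Acvr1c by -0.22), and their part in the value of Cd36 was not tested. The mean of the adipocyte markers, each centred over the arrays, was between -0.04 and 0.61 in normoxia and between -0.63 and -0.02 in intermittent hypoxia.

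Scarb2 encodes LIMP-2, which carries the enzyme glucocerebrosidase to lysosomes. It had log2 levels of 12.28, 12.15, 11.96, 11.98 and 12.24 in normoxia and 12.26, 12.48, 12.14, 12.05 and 11.97 in intermittent hypoxia, and the groups overlapped, with hypoxia array 2 above every normoxia array and the other 4 within the normoxia range. The difference was 0.06 (SE 0.10, limma adjusted p = 0.721), with a 95% interval from 0.897-fold to 1.21-fold, and it was -0.10 with quantile normalization. The other probe set differed by 0.08 (SE 0.09). Of 13 measured genes for lysosomal proteins that work beside SCARB2 and CD68, 1 rose and 0 fell, where 8.93% of all genes were called higher. The gene that rose was Atp6v0d1, a subunit of the lysosomal proton pump, by 0.30 (SE 0.08). Their median difference was 0.18, or 0.03 with quantile normalization.

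**Figure D2:**
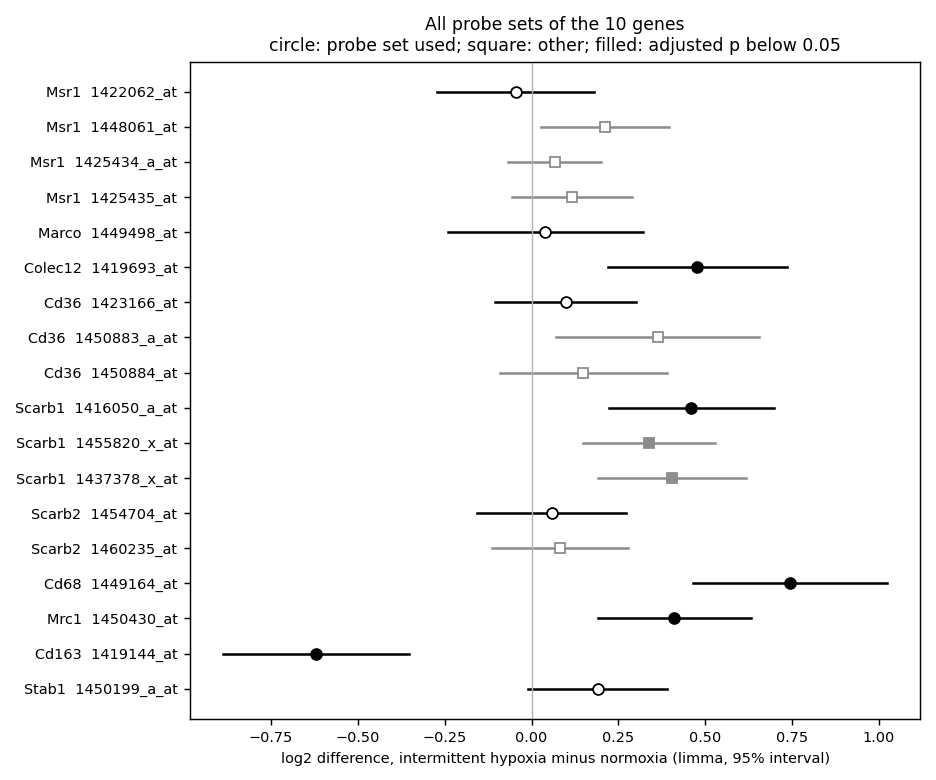
Log2 difference (intermittent hypoxia minus normoxia, horizontal axis) with its 95% limma interval for all 18 probe sets of the 10 genes. Circles are the probe sets used, squares the others, and filled symbols passed the test. The 3 probe sets of Scarb1 passed, the 3 of Cd36 and the 2 of Scarb2 did not, and those of Msr1 lie on either side of 0.

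Cd68 showed the largest rise among the 10. It encodes macrosialin, a heavily glycosylated protein of macrophage endosomes and lysosomes from the LAMP family, and it is among the most used tissue markers of macrophages. Its log2 levels were 7.43, 6.98, 7.18, 7.02 and 7.33 on normoxia arrays 1 to 5 and 8.12, 8.24, 7.92, 7.88 and 7.51 on hypoxia arrays 1 to 5. Every hypoxia array exceeded every normoxia array, with hypoxia array 5 close to normoxia array 1. Like Cd163, Mrc1 and Colec12, Cd68 had only 1 probe set, so no other could check it. The mean of this probe set over all arrays was 7.56, below the array medians of 7.69 to 7.73. Cd68 rose by 0.74 (SE 0.13, limma adjusted p = 0.00721), from 7.19 ± 0.19 to 7.93 ± 0.28 (SD, n = 5), or 1.68-fold with a 95% interval of 1.38 to 2.03. By size it was number 55 of the 1107 genes called higher. The call held in all 10 fits that left out a single array (differences 0.67 to 0.85, limma adjusted p up to 0.0246). Without normoxia arrays 2 to 4 together the difference was 0.55 (SE 0.16, limma adjusted p = 0.251).

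Mrc1 encodes the mannose receptor CD206, a lectin that removes glycoproteins ending in mannose and is high on alveolar and alternatively activated macrophages. It had log2 levels of 8.79, 8.84, 8.56, 8.91 and 8.82 in normoxia and 9.15, 9.36, 9.29, 9.34 and 8.84 in intermittent hypoxia. Hypoxia array 5 fell among the normoxia arrays and the other 4 lay above them all. Mrc1 rose by 0.41 (SE 0.10, limma adjusted p = 0.0241), or 1.33-fold with a 95% interval of 1.14 to 1.55. Its call was lost without normoxia array 3 or hypoxia array 2, 3 or 4 (limma adjusted p 0.0549 to 0.0624), while the difference stayed between 0.36 and 0.50. Without normoxia arrays 2 to 4 together it was 0.39 (limma adjusted p = 0.319).

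Cd163 went the other way. It encodes the macrophage receptor for complexes of haemoglobin and haptoglobin, through which free haemoglobin is cleared from plasma, and it is known as a gene that glucocorticoid hormones and interleukin 10 induce in macrophages. Its log2 levels were 7.14, 7.40, 7.14, 7.29 and 7.41 on normoxia arrays 1 to 5 and 6.16, 6.87, 6.69, 6.88 and 6.67 on hypoxia arrays 1 to 5. Every hypoxia array was below every normoxia array, and hypoxia array 1 was the lowest. The only probe set of Cd163 had a mean of 6.97 over all arrays, below the array medians of 7.69 to 7.73. Cd163 fell by 0.62 (SE 0.12, limma adjusted p = 0.0114), from 7.28 ± 0.13 to 6.65 ± 0.29 (SD, n = 5), to 0.650 of its normoxia level with a 95% interval of 0.540 to 0.783. By size it was number 46 of the 446 genes called lower. The call held in all 10 fits that left out a single array. The difference was -0.50 without hypoxia array 1 and from -0.68 to -0.59 in the other 9 fits, with limma adjusted p values up to 0.0336. Without normoxia arrays 2 to 4 together it was -0.62 (SE 0.18, limma adjusted p = 0.239), so that the size was as large and the call was lost.

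Stab1 encodes stabilin-1, which takes up SPARC and acetylated lipoprotein and is found on tissue macrophages and on sinusoidal and lymphatic endothelium. Its log2 levels were 8.72, 8.85, 8.66, 8.85 and 9.00 in normoxia and 8.84, 9.21, 9.09, 9.08 and 8.79 in intermittent hypoxia. Hypoxia arrays 2, 3 and 4 exceeded all normoxia arrays and hypoxia arrays 1 and 5 did not. The difference of 0.19 (SE 0.09) did not pass (limma adjusted p = 0.176), and its 95% interval ran from 0.994-fold to 1.31-fold.

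Because Cd163 is often read beside CD68 and CD206, the change of each of these from the normoxia mean, less that of Cd163, was taken within every array. Cd68 minus Cd163 was 0.38, -0.33, 0.13, -0.19 and 0.02 log2 units on normoxia arrays 1 to 5. On hypoxia arrays 1 to 5 it was 2.05, 1.46, 1.31, 1.09 and 0.92, a mean shift of 1.37 or 2.58-fold. Mrc1 minus Cd163 was between -0.09 and 0.14 in normoxia and between 0.66 and 1.48 in intermittent hypoxia, a mean shift of 1.03 or 2.04-fold. These pairs were chosen after the opposite changes of their genes were seen, so they restate those changes array by array, without a test. Hypoxia array 1, where Cd163 was lowest, had the largest value of both pairs.

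**Figure D3:**
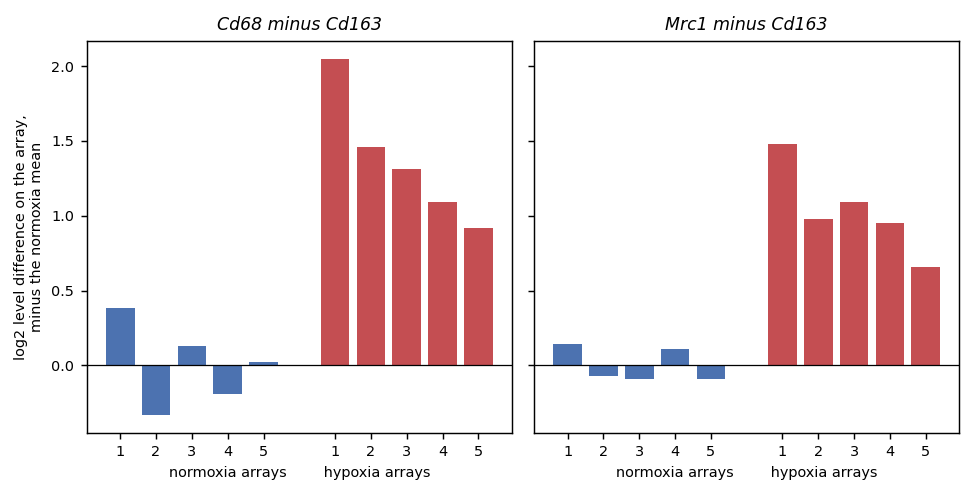
Log2 level of Cd68 (left) or Mrc1 (right) minus that of Cd163 on the same array, less the normoxia mean (vertical axis, bars from 0), for the 5 normoxia and 5 intermittent hypoxia arrays. The hypoxia bars run from 0.92 to 2.05 on the left and from 0.66 to 1.48 on the right, above all normoxia bars, which lie between -0.33 and 0.38.

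The promoters of these 3 genes are shown because Cd68 and Mrc1 rose while Cd163 fell. RefSeq sequences (build GRCm38.p6) of 250 bases before to 50 after the start site were held for 7 of the 10 genes. Both strands were searched for GAGGAA, the core bound by the myeloid ETS factor PU.1, AGAACA, a hexamer of the glucocorticoid receptor's response element, TGACTCA, an AP-1 site, and CACGTG, an E-box. No match overlapped a match of another motif. Capitals mark the matches, on either strand, and each sequence reads 5′ to 3′ on the gene's own strand. They lie at chr11:69666121-69666420 (minus strand) for Cd68, chr2:14229164-14229463 (plus strand) for Mrc1 and chr6:124304401-124304700 (plus strand) for Cd163.
Cd68: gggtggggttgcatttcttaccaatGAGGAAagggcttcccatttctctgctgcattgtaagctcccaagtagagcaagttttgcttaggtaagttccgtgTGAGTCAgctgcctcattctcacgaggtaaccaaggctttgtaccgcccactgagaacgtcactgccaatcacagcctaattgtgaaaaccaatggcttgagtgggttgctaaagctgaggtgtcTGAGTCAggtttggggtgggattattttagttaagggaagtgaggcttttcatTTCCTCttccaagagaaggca
Mrc1: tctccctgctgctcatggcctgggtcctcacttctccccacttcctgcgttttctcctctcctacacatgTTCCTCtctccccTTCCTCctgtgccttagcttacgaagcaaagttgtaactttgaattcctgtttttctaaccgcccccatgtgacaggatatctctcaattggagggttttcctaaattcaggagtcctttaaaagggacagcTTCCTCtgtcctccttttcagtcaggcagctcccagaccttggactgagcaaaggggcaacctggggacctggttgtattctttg
Cd163: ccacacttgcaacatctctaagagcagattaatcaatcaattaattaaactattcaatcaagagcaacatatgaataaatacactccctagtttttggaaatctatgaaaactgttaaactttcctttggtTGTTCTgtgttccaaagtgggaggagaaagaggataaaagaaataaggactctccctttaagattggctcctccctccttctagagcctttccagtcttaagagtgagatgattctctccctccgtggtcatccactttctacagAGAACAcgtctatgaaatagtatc

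The PU.1 core was present 2 times in the Cd68 window, at -225 and 30 from the start site, and 3 times in that of Mrc1, at -180, -167 and -35. Among all 32851 promoter windows of this length, 28.3% held at least 1 copy. The Cd163 window held 0 copies of it and 2 of the glucocorticoid receptor hexamer, at -119 and 27, which 19.0% of all windows held. Cd68 had 2 AP-1 sites, at -149 and -24, against 5.2% of windows with any, and the E-box, held by 7.15% of windows, was not among the letters of these 3. Of the other 4 genes with a sequence, Marco held the PU.1 core at -146 and Stab1 at -30, and neither of these passed the test. Cd36 and Scarb2 held none of the motifs. The printed genes were chosen for their changes, so such matches describe the sequence only. Among the regulators, Spi1, the gene of PU.1, rose by 0.52 (SE 0.11, limma adjusted p = 0.0142), from 7.98 ± 0.26 to 8.50 ± 0.12 (SD, n = 5), and by 0.29 without normoxia arrays 2 to 4 (limma adjusted p = 0.390). Nr3c1, the gene of the glucocorticoid receptor, was named after its values were seen. It differed by 0.29 (SE 0.09) and did not pass (limma adjusted p = 0.0517). The part of either regulator in the changes of Cd68, Mrc1 and Cd163 was not tested.

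The other receptors for uptake that were measured, 18 in number, mostly did not pass. Beside the counts in this and the other lists stand the shares over all genes, 8.93% called higher and 3.6% lower. Clec7a, which encodes the fungal glucan receptor Dectin-1, had log2 levels of 9.71, 9.39, 9.60, 9.53 and 9.57 in normoxia and 10.34, 10.44, 10.16, 10.65 and 10.16 in intermittent hypoxia. The groups did not overlap, and Clec7a rose by 0.79 (SE 0.10, limma adjusted p = 0.00163), or 1.73-fold. Mrc2, a collagen-binding relative of the mannose receptor made by stromal cells, rose by 0.39 (SE 0.10, limma adjusted p = 0.0227). No gene of this group fell and 16 did not pass, and their median difference was 0.09 against 0.01 over all genes.

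General markers of myeloid cells or leukocytes were higher beside Cd68 and Mrc1. Of 12 measured genes 9 rose and 0 fell, with a median difference of 0.54 (0.44 with quantile normalization). Examples were the leukocyte actin-binding gene Coro1a (0.93, SE 0.14), the tetraspanin gene Cd53 (0.77, SE 0.10) and Fcer1g, a signalling chain of Fc receptors (0.55, SE 0.09). Their mean centred level was between -0.41 and -0.09 in normoxia and between 0.09 and 0.41 in intermittent hypoxia, so the groups did not overlap. The part of these markers in the rises of Cd68 and Mrc1 was not tested.

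Markers of alveolar macrophages passed in 1 of 12 cases, a share close to the 8.93% of all genes called higher. The gene was Itgax, the integrin CD11c, which rose by 0.66 (SE 0.13, limma adjusted p = 0.00929). Their median difference was 0.24, and their mean centred level was 0.14 to 0.29 on hypoxia arrays 1 to 4, -0.21 on hypoxia array 5 and -0.16 to -0.04 in normoxia. Of 17 markers of interstitial macrophages and monocytes, 3 rose, the chemokine receptor genes Cx3cr1 (0.60, SE 0.15) and Ccr2 (0.60, SE 0.14) and the apolipoprotein gene Apoe (0.48, SE 0.13), 1 fell and 13 did not pass. The one that fell was Lyve1, a hyaluronan receptor of perivascular macrophages and lymphatic endothelium, by 0.56 (SE 0.11, limma adjusted p = 0.0119). Its log2 levels were 12.76, 12.77, 12.63, 12.71 and 12.60 in normoxia and 11.92, 12.52, 11.94, 12.33 and 11.96 in intermittent hypoxia, with no overlap. Lyve1 and Cd163 were thus both lower on every hypoxia array. Because Lyve1 is also made by endothelium, which cells its fall came from cannot be told here. Of the 17 genes of this list, though, 14 had differences above 0, and the median difference was 0.13. The part of this list in the fall of Cd163 was not tested. Among 12 genes of alternative activation, a state in which Mrc1 is high, 0 rose and 1 fell, the chemokine gene Ccl24, by 0.36 (SE 0.09).

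Colec12, Scarb1 and Stab1 are also made outside the myeloid lineage, and most markers of such cells did not pass. Of 10 fibroblast markers 5 rose and 0 fell, with Mfap5 at 0.85, Col13a1 at 0.75 and Col14a1 at 0.60, and their mean centred level was -0.29 to 0.01 in normoxia and 0.03 to 0.30 in intermittent hypoxia. Of 16 endothelial markers 2 rose, Emcn by 1.03 and Cd34 by 0.68, and 1 fell, Ramp2 by 0.30, with mean centred levels of -0.27 to 0.09 and -0.06 to 0.21. Of 9 type 2 cell markers 2 rose, Etv5 by 0.63 and Cd74 by 0.64, the second of which is also a gene of antigen-presenting cells, with mean centred levels of -0.28 to 0.12 and -0.03 to 0.25. Of 12 striated muscle markers 1 fell, Casq1, by 1.25, with mean centred levels of -0.21 to 0.68 and -0.65 to 0.04. Among the endothelial markers 13 did not pass, among type 2 markers 7 and among muscle markers 11. Median differences were 0.27 for fibroblast, 0.15 for endothelial, 0.20 for type 2 and -0.02 for muscle markers. With quantile normalization they were 0.14, -0.003, 0.04 and -0.10. The part of any of these lists in the values of the receptor genes was not tested.

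Genes that act downstream of the receptors, or control them, changed singly. Of 15 genes that handle lipid after uptake 3 rose and 2 fell, with a median difference of 0.00. Fabp5, a fatty acid carrier, rose by 0.51 (SE 0.13) and Lpl, the lipase that releases fatty acids at the vessel wall, fell by 0.49 (SE 0.12). Of 27 regulators 4 rose and 1 fell: besides Spi1, Csf2rb, a subunit of the GM-CSF receptor that alveolar macrophages need, rose by 0.56 (SE 0.13), and the fatty acid receptor Ppara fell by 0.50 (SE 0.11). The list for haemoglobin and haem clearance, the task of CD163, held 12 genes, iron transport genes such as Tfrc among them. Of the 12, 2 rose and 0 fell. These were Tfrc, the transferrin receptor, which takes up iron, by 0.39 (SE 0.09), and the haem transporter Slc48a1 by 0.30 (SE 0.09).

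In all, 42 genes of these lists passed with all 10 arrays. Of these, 1 passed without normoxia arrays 2 to 4 together, Emcn (0.91, limma adjusted p = 0.00775), and all 42 kept their sign. The difference of Clec7a was then 0.71 (limma adjusted p = 0.106) and that of Lyve1 -0.54 (0.265), while Casq1 was at -0.26 (0.724) and Mrc2 at 0.23 (0.517). The median of the general myeloid markers was 0.41, that of the fibroblast markers 0.24 and that of the endothelial markers -0.01.

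**Figure D4:**
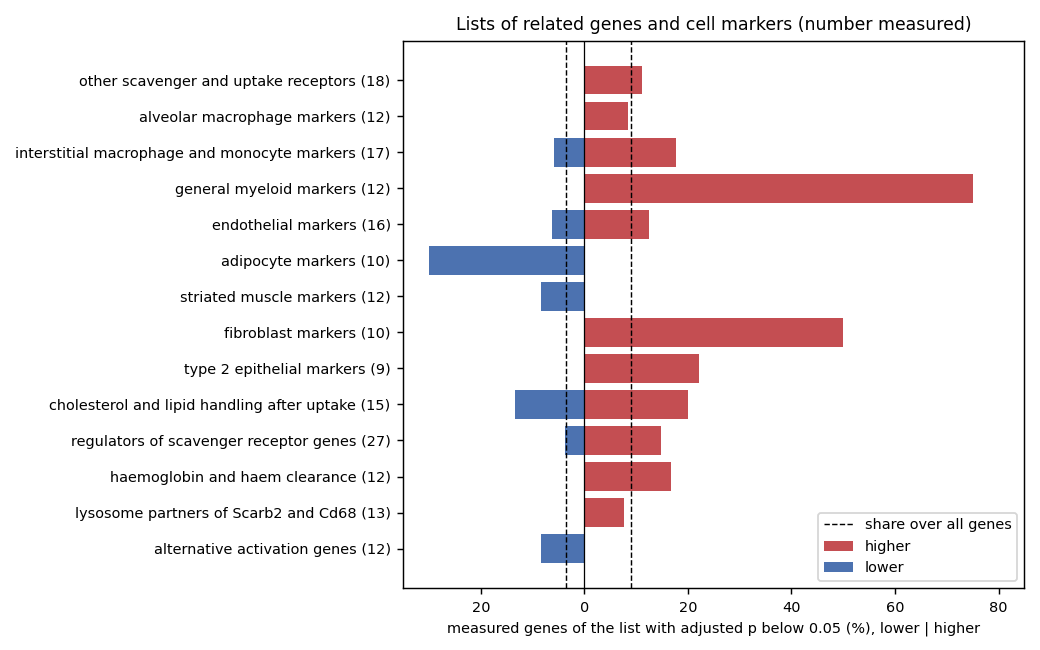
Share of the measured genes of each list (number in brackets; the 10 receptor genes left out) that passed the limma test, higher to the right and lower to the left in percent, with dashed lines at the shares over all genes (8.93% and 3.6%). General myeloid markers reach 9 of 12 higher and fibroblast markers 5 of 10, while adipocyte markers have 3 of 10 lower.

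For each receptor the 3 genes whose levels were most correlated with it over the 10 arrays are named. For Cd68 they were Rad17, Fundc1 and Imp3 (Pearson r 0.985, 0.982 and 0.980), and for Scarb1 Copb2, Ubxn8 and Azi2 (0.989, 0.976 and 0.970). For Mrc1 they were Col4a5, Dnajb11 and Fbl (0.957, 0.954 and 0.941), for Colec12 Ncln, Slc39a8 and Lrrc2 (0.972, 0.958 and 0.955) and for Cd163 Amacr, Rwdd2b and Bpifb2 (0.952, 0.945 and 0.930). Cd36 ran with Inpp5b, with the endothelial receptor gene Tek and with Tspan14 (0.965, 0.962 and 0.960), and Scarb2 with the lipid droplet gene Plin2, with Cav1 and with Dpf2 (0.966, 0.964 and 0.955). Marco ran with the neutrophil gene Cd177, the prostaglandin synthase gene Ptgs2 and Pigr (0.872, 0.853 and 0.852). Msr1 ran with Slc15a2, Irs4 and Ccnf (0.904, 0.900 and 0.899), and Stab1 with Armcx1, Dipk1b and Hepacam2 (0.946, 0.938 and 0.935). These are the highest correlations among all named genes, all points share the same arrays, and values of a gene that differs between the groups carry that difference, so they describe likeness only. With each group's mean removed, the r of these genes with their receptor was 0.748 to 0.979, lowest for Bpifb2 with Cd163.

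**Figure D5:**
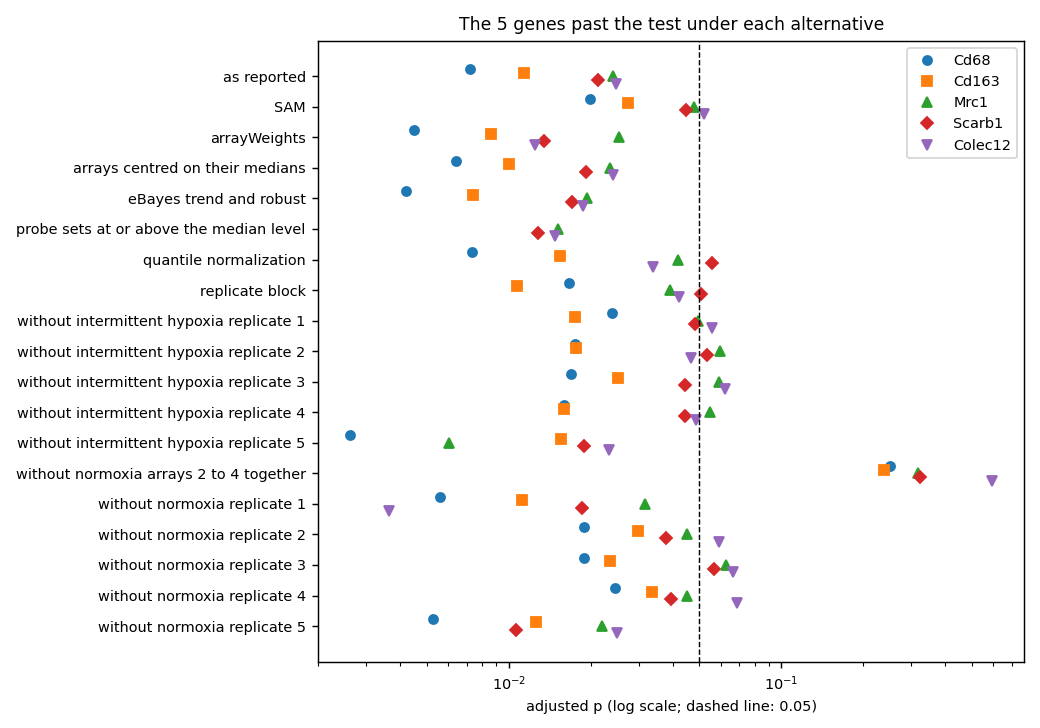
Adjusted p (log axis, dashed line at 0.05) of the 5 genes that passed, in the fit reported and under each alternative; Cd68 and Cd163 lie below the median probe set and have no point where only brighter probe sets were kept. Cd68 and Cd163 stay left of the line when any single array is left out, and all 5 lie right of it, at 0.239 to 0.595, without normoxia arrays 2 to 4 together.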

How the data were processed

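Whole-lung RNA of 10 mice, 5 per group, was measured on 1 array each. The authors deposited log2 probe set levels. The submitters' processing notes name RMA and affy, with no role or version. Whether all arrays were normalized together is unknown, since array SDs differ (1.89 to 2.05). The array annotation gave 1 symbol for 20380 of 22626 probe sets, several for 691 and none for 1555. All probe sets entered limma 3.58.1 (lmFit and eBayes, R 4.3.3) without a filter, with two-sided tests, Benjamini-Hochberg adjustment across the whole table and a threshold of 0.05. Intervals are 95% limma intervals, and p-values reflect the spread between animals. The members and lists were chosen with earlier results of these data known. Named genes were all 10 receptors, up to 3 per list with the smallest p among those that passed, and the 3 most correlated with each receptor. Names outside this rule are marked. Alternatives were SAM (100 permutations, null pooled over probe sets), a replicate block, quantile normalization, median centring, arrayWeights, trend and robust eBayes, a filter on dim probe sets, a threshold of 0.10, means over probe sets and arrays left out. Replicate numbers were checked for pairing on deviations from the group means. Same-numbered pairs correlated at -0.24 to 0.22, with 2 of 5 above 0.1. Of the 10 arrays, 4 correlated best with the same-numbered array of the other group. These values do not settle whether same-numbered samples were paired, and the labels state no pairing. On simulated data of 22626 probe sets with 200 changed, limma recovered 73% of log2 shifts of 0.5 and 97% of shifts of 1, with 6.59% of 182 calls false. The simulated noise was independent between probe sets and between arrays. It held no difference shared by whole arrays, such as the narrower spread of normoxia arrays 2 to 4, so these rates do not cover that case. The 200 changed probe sets were also far fewer than the 2699 that passed in the data. Recovery at an adjusted p depends on that share, so the rates are not those of this series.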

Additional observations from a re-analysis of the deposited data

Results flagged for a closer look

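Among the 20 groups of 5 arrays examined (10 receptor genes in each of the 2 groups), 2 held an array far from its group, where chance gives about 1 in 20. Cd163 on hypoxia array 1 had a log2 level of 6.16, against 6.67 to 6.88 on the other 4 hypoxia arrays. Without it the fall of Cd163 was 0.50 on the log2 scale and still passed (limma adjusted p = 0.0175). Marco on hypoxia array 4 had a level of 6.73, against 6.05 to 6.13 on the others, and without it the difference was -0.09 (limma adjusted p = 0.573). On the same array Cd177 and Ptgs2 were also the highest of all 10, at 7.58 and 9.85. They had been picked as the genes most like Marco over these same arrays. A shared peak there follows from that choice and adds no support.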

How the results depend on the processing

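Of 22626 probe sets 2699 passed. The count was 1691 with SAM, 4132 with arrayWeights, 4954 at a threshold of 0.10, 1003 to 4800 with 1 array left out and 16 without normoxia arrays 2 to 4 together. With the replicate number as a block it was 1755, and 4 receptor genes passed; Scarb1 did not (limma adjusted p = 0.0507). Against 5 receptor genes reported, 3 passed (Mrc1, Scarb1 and Colec12) where dim probe sets (below the median) were left out. Cd68 and Cd163 were among the probe sets left out there, so they were not tested. With 1 array left out 2 to 5 passed (2 without normoxia array 3), and without normoxia arrays 2 to 4 together 0 passed. The cause was not tested. Quantile normalization moved the share of called probe sets that were higher from 71.2% to 59.1%. Signs turned only in genes that did not pass. Cd36 and Scarb2 were at -0.064 and -0.10 with quantile normalization and at -0.12 and -0.077 without normoxia arrays 2 to 4. Msr1 was at 0.0049 with arrayWeights, 0.0034 without normoxia arrays 2 to 4, 0.087 as the mean of its probe sets and 0.21, 0.067 and 0.12 at its other probe sets. With 1 array left out Marco ran from -0.086 to 0.10, Msr1 from -0.11 to 0.0115 and Scarb2 from -0.017 to 0.11. The 5 genes that passed kept their sign in all alternatives run.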

Other observations

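Hypoxia array 5 had the lowest level of its group in 6 of the 10 receptor genes (Cd68, Mrc1, Scarb1, Scarb2, Colec12 and Stab1), and normoxia array 3 had the lowest in 6 as well. Chil3, a chitinase-like protein that alveolar macrophages secrete, was named after its values were seen. Its log2 level was 11.62, 12.19, 11.71, 12.11 and 10.18 on hypoxia arrays 1 to 5, against 10.57 to 11.02 in normoxia, so hypoxia array 5 was the lowest of all 10 arrays and the other 4 hypoxia arrays were the highest. Chil3 did not pass over all arrays (0.77, SE 0.30, limma adjusted p = 0.102). Without hypoxia array 5 the differences of Mrc1 and Cd68 were 0.50 and 0.85. Leaving out the lowest array of the group had to enlarge both. Without hypoxia array 2, the highest of the group in both genes, they were 0.37 and 0.67. Mrc1 then did not pass (limma adjusted p = 0.0598).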
